A study of Mus musculus with 4 samples.

Results

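The genes described here were the CDK inhibitors Cdkn1a, Cdkn1b, Cdkn1c, Cdkn2c and Cdkn2d, the D cyclins Ccnd1, Ccnd2 and Ccnd3, and the cyclin D kinases Cdk4 and Cdk6. They were chosen by symbol for their role in the entry into the cell cycle, not by their values, and they were 10 of the 12417 genes kept. All 10 had a value in each of the 4 libraries.

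Progress through G1 depends on CDK4 and CDK6, which bind a D cyclin and phosphorylate the retinoblastoma proteins, so that E2F factors can switch on the genes of DNA synthesis. INK4 inhibitors such as p18 (Cdkn2c) and p19 (Cdkn2d) bind CDK4 and CDK6 themselves, whereas the CIP/KIP inhibitors p21 (Cdkn1a), p27 (Cdkn1b) and p57 (Cdkn1c) bind cyclin-CDK complexes and block CDK2. In bone marrow most stem cells rest outside the cycle, and p57 in particular is known for its part in that quiescence, while lymphoid progenitors and their B-lineage descendants rely heavily on cyclin D3 and CDK6.

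RNA was measured by sequencing in C57BL/6 mice that were wild type (WT) or lacked the G protein-coupled receptor kinase GRK6 (GRK6-/-), to see what GRK6 does in blood-forming cells. Bone marrow cells of the HSC gate (hematopoietic stem cells, Lin-c-kit+sca-1+) and of the CLP gate (common lymphoid progenitors, with Il-7Ra+ in addition) were sorted, which gave HSC and CLP groups of each genotype. Each group was 1 library, pooled from the cDNA of 13 to 15 cells of 3 to 4 mice after 20 and then 10 cycles of PCR. No treatment, promoter-driven transgene or age is given for the mice in the labels, and with no replicates the spread between mice could not be measured. The HSC gate is broad: it takes in the multipotent progenitors as well as the stem cells.

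The values are FPKM, that is fragments scaled to transcript length and to the mapped fragments of the library, so that levels can be compared between genes per length. A gene without a row in the table of a library was counted as 0 FPKM there. The depth estimated from steps in the low values was 2910000 fragments (WT) and 3810000 (GRK6-/-) in HSC and 4360000 (WT) and 2790000 (GRK6-/-) in CLP. Intervals given with ratios are exact 95% intervals from the fragments estimated at these depths and cover counting error only, since PCR products are not independent molecules. The authors report more reads than this for each lineage, and the gap was not tested. Fragment numbers below are therefore estimates, counted on the shortest CCDS (consensus coding) transcript of a gene unless stated otherwise. In these pools fewer cells of a type and less RNA per cell cannot be told apart. Grk6 itself was at 42.7 FPKM (WT) and 89.4 (GRK6-/-) in HSC and 26.9 (WT) and 57.6 (GRK6-/-) in CLP, so it was higher in both libraries labelled GRK6-/-. A value per gene cannot show whether a deleted exon is missing, and the genotype is therefore given below as labelled. Il7r, which defines the CLP gate, had no row in WT HSC and was at 1.08 FPKM in GRK6-/- HSC, against 120.1 in WT CLP and 75.1 in GRK6-/- CLP. The 9 CLP markers summed to 185.5 FPKM (WT) and 143.3 (GRK6-/-) in HSC and 2801 (WT) and 2012 (GRK6-/-) in CLP. The 10 HSC markers kept of 11 summed to between 337.6 and 493.1 FPKM in the 4 libraries, with Procr without a row in WT HSC and Tek without one in GRK6-/- CLP.

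The GRK6-/- CLP library stood apart by the erythroid gene Hba-a2, an alpha globin, at 17220 FPKM against 5.98 to 53.2 in the other 3. The 7 erythroid markers kept of 10 summed to 337.6 FPKM (WT) and 1701 (GRK6-/-) in HSC and 154.2 (WT) and 18111 (GRK6-/-) in CLP. All 7 had a row in both GRK6-/- libraries. Most of the GRK6-/- CLP sum was Hba-a2, while Epor, Car1 and Car2 were highest in GRK6-/- HSC. The 7 B-lineage markers kept of 8 summed to 41.9, 35.5, 328.3 and 1062 FPKM in the same order, and 6 of them had no row in WT HSC. The 6 megakaryocyte markers summed to 149.6 FPKM (WT) and 13.1 (GRK6-/-) in HSC and 13.5 (WT) and 117.3 (GRK6-/-) in CLP, so WT HSC and GRK6-/- CLP were the high libraries. The 10 myeloid markers summed to between 7787 and 17840 FPKM in every library, the highest in WT HSC. Values that rest on the GRK6-/- CLP library are given below beside those of the other libraries, and the part of these markers in them was not tested.

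**Figure D1:**
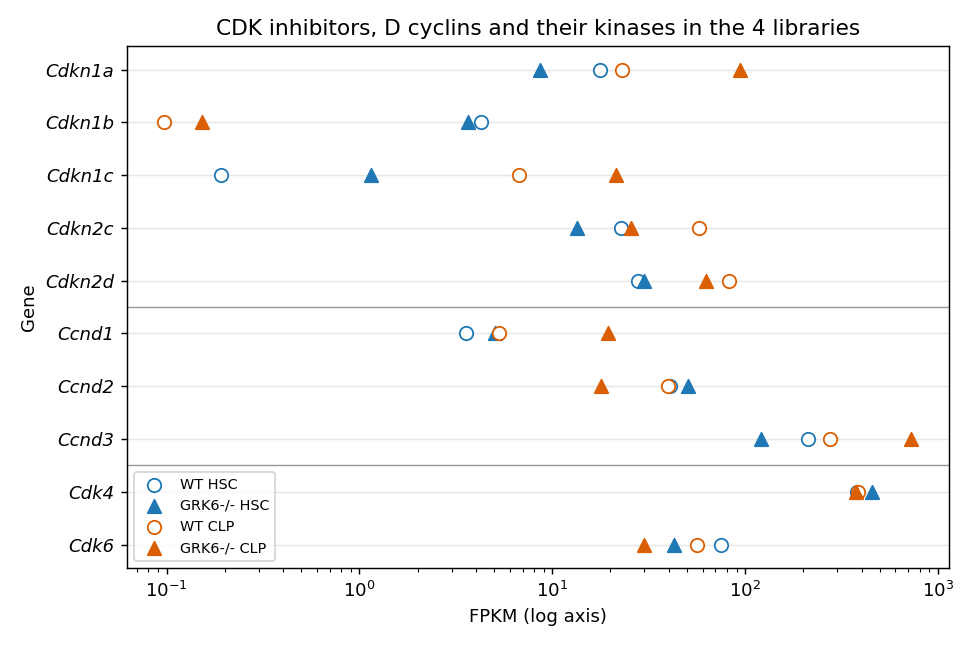
FPKM on a log axis (horizontal) of the 5 CDK inhibitors, 3 D cyclins and 2 kinases (vertical) in each of the 4 libraries, with open circles for WT, filled triangles for GRK6-/-, blue for HSC and orange for CLP; each point is 1 library, so there are no error bars. The 4 Cdk4 points lie between 373.6 and 452.2 FPKM, while those of Cdkn1c run from 0.191 to 21.5 FPKM.

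Among the CIP/KIP inhibitors, Cdkn1a and Cdkn1c were highest in the GRK6-/- CLP library and Cdkn1b was highest in the HSC libraries. Cdkn1a, which encodes p21, the inhibitor induced by p53, lies at chr17:29227931-29237667 on the + strand (mm9, Entrez 12575). Its level was 17.7 FPKM (WT) and 8.57 (GRK6-/-) in HSC and 22.9 (WT) and 93.8 (GRK6-/-) in CLP. The lowest and the highest value were thus both in libraries labelled GRK6-/-, with the WT libraries between them. The interval of the ratio of WT CLP to WT HSC, 1.3 (0.880 to 2.0), includes 1 on the shortest CCDS transcript, with 75 and 38 fragments. On the longest the fragments are 191 and 98, and the interval would be narrower but was not computed. No verdict on a difference beyond counting error is therefore drawn.

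RefSeq gives promoter entries, 250 bases before to 50 after a start, for 7 of the 10 genes in the GRCm38.p6 build. Cdkn1c, Ccnd1 and Ccnd2 have none. Cdkn1a has entries for an upstream and a downstream start, shown because this was the inhibitor with the largest difference between the CLP libraries. In the upstream entry, at chr17:29090729-29091028 on the + strand, the capitals mark a p53 response element of 20 bases, searched on both strands with at most 1 mismatch outside the fixed C and G of each decamer. In the downstream entry, at chr17:29093519-29093818 on the + strand, they mark the GC box GGGCGG, searched on both strands.
Cdkn1a upstream start: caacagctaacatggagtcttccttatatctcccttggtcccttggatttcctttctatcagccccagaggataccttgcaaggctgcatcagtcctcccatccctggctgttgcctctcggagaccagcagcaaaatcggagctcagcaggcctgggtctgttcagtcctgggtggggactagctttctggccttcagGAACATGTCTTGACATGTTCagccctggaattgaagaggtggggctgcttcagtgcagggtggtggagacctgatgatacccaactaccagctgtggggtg
Cdkn1a downstream start: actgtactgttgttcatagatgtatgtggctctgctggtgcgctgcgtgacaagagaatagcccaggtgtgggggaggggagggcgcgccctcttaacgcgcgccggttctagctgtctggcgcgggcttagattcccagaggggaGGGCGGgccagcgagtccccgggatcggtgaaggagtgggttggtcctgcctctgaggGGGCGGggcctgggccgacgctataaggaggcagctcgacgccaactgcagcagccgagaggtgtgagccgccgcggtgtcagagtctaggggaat

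The p53 element was looked for after the sequence had been seen. It matched 22 of 32851 promoter entries (0.067%) and no other entry of the 10 genes, whereas a GC box was present in 35.7% of all entries. A match of letters is no measure of binding. Trp53, which encodes p53 and was picked for this sequence, was at 62.1 FPKM (WT) and 63.1 (GRK6-/-) in HSC and 78.4 (WT) and 134.3 (GRK6-/-) in CLP. The last library was the highest for Trp53 as for Cdkn1a, though Trp53 did not pass 2-fold between the CLP libraries. The lowest library was WT HSC for Trp53 but GRK6-/- HSC for Cdkn1a. Any relation between the levels of these genes was not tested.

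Cdkn1b encodes p27, a brake on CDK2 that also helps assemble cyclin D complexes, and lies at chr6:134870419-134875543 on the + strand (Entrez 12576). It was at 4.28 FPKM (WT) and 3.66 (GRK6-/-) in HSC, but at 0.0970 (WT) and 0.153 (GRK6-/-) in CLP. Both HSC libraries were above both CLP libraries. On the shortest CCDS transcript the CLP values correspond to 1 fragment each against 30 and 33 in HSC. On the longest they correspond to 2 each against 57 and 64. From the shortest, the ratio of CLP to HSC had wide intervals, 0.0227 (0.000545 to 0.134) in WT and 0.0417 (0.00102 to 0.247) in GRK6-/-. Neither interval includes 1. The single promoter entry of Cdkn1b holds 1 GC box.

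Cdkn1c encodes p57 and lies in the imprinted cluster at the end of chromosome 7, at chr7:150644244-150646955 on the - strand (Entrez 12577). Its level was 0.191 FPKM (WT, from 1 fragment) and 1.15 (GRK6-/-, from 8) in HSC and 6.69 (WT) and 21.5 (GRK6-/-) in CLP. Both CLP libraries were above both HSC libraries, the opposite order to Cdkn1b. The ratio of CLP to HSC was 35.1 (6.32 to 1476) in WT and 18.7 (9.46 to 45.8) in GRK6-/-. With a highest value 113 times the lowest, Cdkn1c had the widest range of the 10 genes on the scale of log2(FPKM + 1), 4.24, and 93.0% of all genes kept had a smaller range.

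The INK4 inhibitors were the more abundant group in 3 of the 4 libraries. Cdkn2c, which encodes p18 and lies on chromosome 4 at 109333481 to 109337977 on the - strand in 2 of the libraries (Entrez 12580), was at 22.7 FPKM (WT) and 13.4 (GRK6-/-) in HSC and 57.7 (WT) and 25.5 (GRK6-/-) in CLP. It was highest in WT CLP, and lower in the GRK6-/- library of each population. Cdkn2d, which encodes p19, was at 27.7, 29.8, 82.7 and 62.4 FPKM in the same order, and the CLP libraries were again the higher. Its HSC values did not differ beyond counting error, with a ratio of GRK6-/- to WT of 1.07 (0.831 to 1.4).

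Cdkn2d is given with a limit, because in each library its symbol labels 2 loci whose values were summed. The annotated gene lies at chr9:21092908-21095653 on the - strand (Entrez 12581), and the other at chr9:123836860-123839607, where GENCODE annotates Gm4694 on the + strand. The loci held 14.6 and 13.1 FPKM in HSC of WT mice, 15.3 and 14.4 in those labelled GRK6-/-, 39.9 and 42.8 in CLP of WT mice, and 34.2 and 28.2 in those labelled GRK6-/-. In every library the values of the loci were thus close to each other. Over 2749 aligned positions 2743 bases are identical (99.8%), and the coding sequences of 498 bases share 497, so that most short reads could come from either. The stretch around the coding difference is shown with the differing base in capitals, both in the sense of the gene, from mm9 chr9:21093678-21093737 on the - strand and chr9:123838778-123838837 on the + strand.
Cdkn2d: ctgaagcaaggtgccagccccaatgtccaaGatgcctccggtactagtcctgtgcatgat
Second locus: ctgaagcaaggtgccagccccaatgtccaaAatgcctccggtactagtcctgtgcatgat

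In WT CLP the annotated locus was also given wider bounds, 21077729 to 21095653, which span Kri1 and reach Atg4d. Cdkn2a and Cdkn2b, the other INK4 genes, which encode p16 and p15, had no row in any library.

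Summed over the 5 inhibitors, the level was 72.5 FPKM (WT) and 56.5 (GRK6-/-) in HSC and 170.1 (WT) and 203.3 (GRK6-/-) in CLP, so both CLP libraries held the more inhibitor RNA. The makeup differed between the CLP libraries. Cdkn1a made up 13.5% of the sum in WT CLP and 46.1% in GRK6-/- CLP, against 24.3% in WT HSC and 15.2% in GRK6-/- HSC. Cdkn2c and Cdkn2d together, the INK4 genes, held 140.4 FPKM in WT CLP and 87.9 in GRK6-/- CLP, while the CIP/KIP genes held 29.7 and 115.4. GRK6-/- CLP was thus the only one of the 4 libraries in which the CIP/KIP sum was above the INK4 sum. With only the higher of the Cdkn2d loci counted, the share of Cdkn2d fell from 48.6% to 32.9% in WT CLP and from 30.7% to 19.5% in GRK6-/- CLP.

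**Figure D2:**
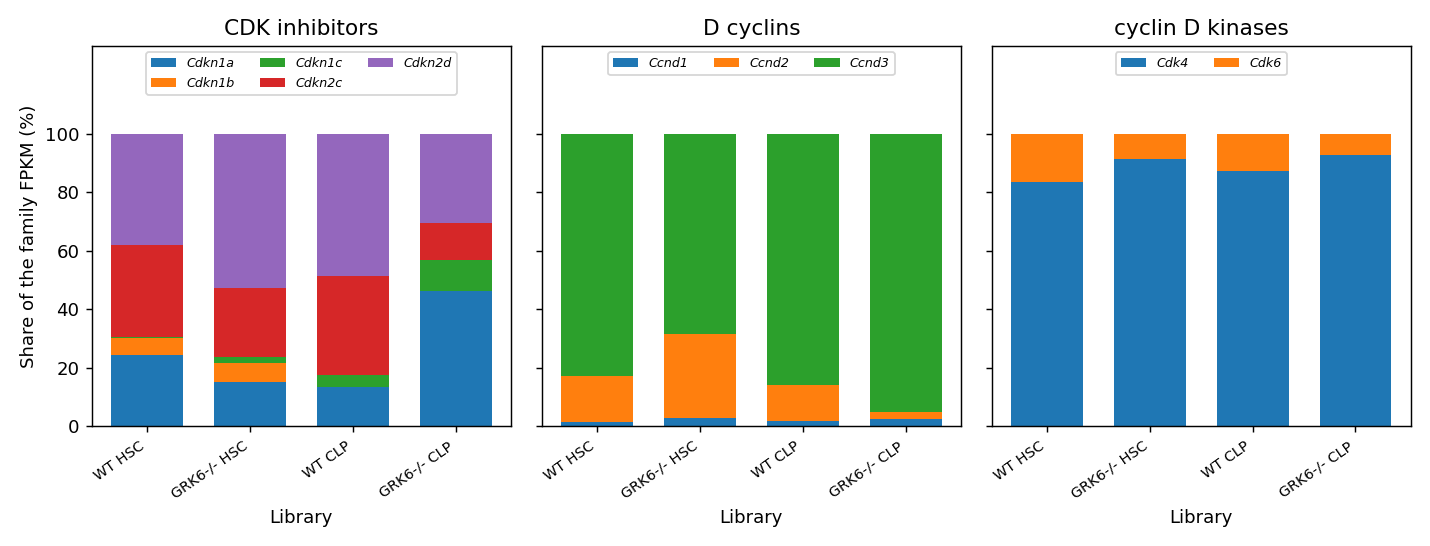
Share in percent (vertical) of each gene in the summed FPKM of its family, for the CDK inhibitors, the D cyclins and the cyclin D kinases (panels from left to right), in the 4 libraries (horizontal, 1 library per bar). Cdkn1a takes 46.1% of the inhibitor bar of GRK6-/- CLP, Ccnd3 takes between 68.5% and 95.1% of every D cyclin bar, and Cdk6 takes between 7.39% and 16.5% of every kinase bar.

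Ccnd3 was the leading D cyclin in all 4 libraries. Ccnd3 encodes cyclin D3, the D cyclin that early lymphocytes need for their expansion, and lies at chr17:47642000-47736640 on the + strand (Entrez 12445), its end overlapping Bysl on the other strand. It was at 212.2 FPKM (WT) and 120.4 (GRK6-/-) in HSC and 275.7 (WT) and 723.4 (GRK6-/-) in CLP. As for Cdkn1a, the lowest and the highest value were both in libraries labelled GRK6-/-. Its share of the D cyclin sum was 82.8% (WT) and 68.5% (GRK6-/-) in HSC and 86.0% (WT) and 95.1% (GRK6-/-) in CLP.

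Ccnd2 encodes cyclin D2, a target of cytokine signals in blood cells, and lies at chr6:127075727-127101066 on the - strand (Entrez 12444), overlapping 9330179D12Rik. It was at 40.7 FPKM (WT) and 50.3 (GRK6-/-) in HSC and 39.6 (WT) and 17.8 (GRK6-/-) in CLP. GRK6-/- CLP alone was low, and the WT libraries did not differ beyond counting error, with a ratio of CLP to HSC of 0.973 (0.881 to 1.07). Its order over the libraries was the reverse of that of Ccnd3, and its share of the sum ran from 28.6% in GRK6-/- HSC down to 2.35% in GRK6-/- CLP.

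Ccnd1 encodes cyclin D1, which couples growth factor signals to the cycle in many tissues, and lies at chr7:152115836-152125830 on the - strand (Entrez 12443), where it overlaps Oraov1. It was the lowest of the D cyclins per length in 3 libraries, at 3.54 FPKM (WT) and 5.05 (GRK6-/-) in HSC and 5.31 in WT CLP. In GRK6-/- CLP it was at 19.4 FPKM, just above Ccnd2. The libraries are not stated to keep the strand, so reads of these genes and of the genes overlapping them cannot be told apart.

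Summed over the D cyclins the level was 256.4 FPKM (WT) and 175.7 (GRK6-/-) in HSC and 320.6 (WT) and 760.6 (GRK6-/-) in CLP. Set against the inhibitor sum, this gave ratios of 3.54, 3.11, 1.89 and 3.74 in the same order. WT CLP had the lowest ratio, and GRK6-/- CLP, where both sums were highest, had a ratio near that of WT HSC.

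Cdk4 varied the least of the 10 genes. Cdk4, the ubiquitous cyclin D kinase, lies at chr10:126500659-126504338 on the + strand (Entrez 12567), with wider bounds that reach Tspan31 in WT CLP. It was at 379.2 FPKM (WT) and 452.2 (GRK6-/-) in HSC and 385.2 (WT) and 373.6 (GRK6-/-) in CLP. Its highest value was 1.21 times its lowest. Of the 772 genes with a mean of at least 100 FPKM, 2.59% had a smaller range, and of all genes kept 4.90% did. The values of WT HSC and WT CLP, with a ratio of CLP to HSC of 1.02 (0.963 to 1.07), and of WT CLP and GRK6-/- CLP, with a ratio of GRK6-/- to WT of 0.970 (0.919 to 1.02), did not differ beyond counting error.

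The promoter entry of Cdk4 is shown because it belongs to the member with the steadiest level and is rich in E-boxes, the letters CACGTG that MYC and related factors bind. It covers chr10:127063285-127063584 on the + strand of GRCm38.p6, and the capitals mark 4 E-boxes and 3 GC boxes (GGGCGG on either strand), 2 of which overlap each other.
Cdk4: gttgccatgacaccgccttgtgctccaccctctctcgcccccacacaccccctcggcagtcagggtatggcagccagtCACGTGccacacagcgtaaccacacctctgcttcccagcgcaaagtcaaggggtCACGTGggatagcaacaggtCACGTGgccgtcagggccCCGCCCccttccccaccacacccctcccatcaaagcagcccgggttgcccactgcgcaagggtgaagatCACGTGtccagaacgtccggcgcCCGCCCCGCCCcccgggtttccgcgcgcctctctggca

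An E-box was found in 7.15% of the 32851 entries, and 4 or more in 8 of them (0.0244%). Entries of Cdk6 and Cdkn2c held 1 E-box each, so that 3 of the 7 genes with entries had one. The E2F letters searched, TTTCCCGC or TTTGGCGC on either strand, were in 1.56% of all entries and in no entry of the 10 genes. The TATA box TATAAA, in 13.6% of all entries, was found in 1 gene, Cdk6. Myc, which encodes the E-box factor MYC, was at 41.0 FPKM (WT) and 129.4 (GRK6-/-) in HSC and 81.6 (WT) and 21.3 (GRK6-/-) in CLP, and any relation to the Cdk4 level was not tested.

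Cdk6, the other cyclin D kinase, which is prominent in blood-forming cells, lies on chromosome 5 from 3344312 to 3523253 on the + strand in WT HSC, with slightly different bounds in the other files (Entrez 12571). It was at 75.1 FPKM (WT) and 42.9 (GRK6-/-) in HSC and 56.0 (WT) and 29.8 (GRK6-/-) in CLP. In each population the library labelled GRK6-/- was the lower. Its share of the kinase sum was 16.5% and 8.67% in HSC and 12.7% and 7.39% in CLP, for WT and GRK6-/- in turn. The ratio of Cdk4 to Cdk6 was thus 5.05 in WT HSC and 6.88 in WT CLP, against 10.5 in GRK6-/- HSC and 12.5 in GRK6-/- CLP. The kinase sum divided by the inhibitor sum was 6.27 (WT) and 8.76 (GRK6-/-) in HSC and 2.59 (WT) and 1.98 (GRK6-/-) in CLP, lower in both CLP libraries than in both HSC libraries.

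The comparison of genotypes in HSC asked how these genes stood in stem cells labelled GRK6-/-. On the scale of log2(FPKM + 1), none of the 10 genes passed a 2-fold difference, 0 of 10 against 37.4% of the 11624 genes with a value in either library and 33.3% of those with a mean of at least 10 FPKM. Of all genes 19.3% were higher and 18.0% lower. The largest differences were in Cdkn1a, at -0.96 on this scale, Cdkn1c, at 0.85, Ccnd3, at -0.81, Cdk6, at -0.79, and Cdkn2c, at -0.72. Of the ratios of FPKM behind them, those of Cdkn1a, 0.486 (0.277 to 0.825), Ccnd3, 0.568 (0.520 to 0.619), Cdk6, 0.571 (0.501 to 0.651), and Cdkn2c, 0.590 (0.406 to 0.841), had intervals below 1. The ratio of Cdkn1c, 6.02, rests on 1 fragment in WT HSC and its interval of 0.819 to 271 includes 1. Smaller ratios above 1 were those of Cdk4, 1.19 (1.13 to 1.26), and Ccnd2, 1.24 (1.12 to 1.36), with intervals above 1. The intervals of Cdkn1b, Cdkn2d and Ccnd1 included 1. The median size of the log2 difference was 0.57 for the 10 genes and 0.72 for all genes. Beside these values, the erythroid marker sum was 337.6 FPKM in WT HSC and 1701 in GRK6-/- HSC, while the megakaryocyte marker sum was 149.6 and 13.1 FPKM, with Itga2b at 47.0 and 4.2, Gp9 at 27.0 and 6.70 and Pf4 at 75.4 FPKM and no row. The part of these markers in the differences was not tested.

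In CLP the same comparison gave 6 of 10 genes past 2-fold, against 50.0% of the 11191 genes with a value in either library and 45.0% of those with a mean of at least 10 FPKM. A share near that of all genes is no result about these 10. Of the 6, Cdkn1a, Cdkn1c, Ccnd1 and Ccnd3 were higher in GRK6-/- CLP and Cdkn2c and Ccnd2 were lower, where 26.6% of all genes were higher and 23.4% lower. The log2 difference was 1.99 for Cdkn1a, 1.69 for Ccnd1, 1.55 for Cdkn1c and 1.39 for Ccnd3, and -1.15 for Cdkn2c and -1.11 for Ccnd2. As ratios of FPKM, Cdkn1a was 4.10 (3.11 to 5.4), Ccnd1 3.65 (2.81 to 4.72), Cdkn1c 3.21 (2.31 to 4.52), Ccnd3 2.62 (2.49 to 2.76), Ccnd2 0.451 (0.394 to 0.515) and Cdkn2c 0.442 (0.341 to 0.572).

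Each of these 6 intervals excluded 1, yet they say nothing of the spread between mice. Of the other 4 genes, Cdk6, at a ratio of 0.532 (0.451 to 0.624), and Cdkn2d, at 0.754 (0.639 to 0.887), had intervals below 1 without passing 2-fold on the log2 scale, and those of Cdk4 and Cdkn1b included 1. By class, 2 of 3 CIP/KIP genes were higher past 2-fold in GRK6-/- CLP and 1 of 2 INK4 genes was lower. Of all genes 26.6% were higher and 23.4% lower, and these classes are too short for a share to be read. The median size of the log2 difference was 1.13 for the 10 genes and 1.0 for all genes. These values all rest on the GRK6-/- CLP library, where the Hba-a2 level and the erythroid and B-lineage sums were the highest of the 4. Of the megakaryocyte markers with a value in CLP, 4 of 5 were also higher past 2-fold in GRK6-/- CLP and none was lower. The part of these markers in the differences was not tested.

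**Figure D3:**
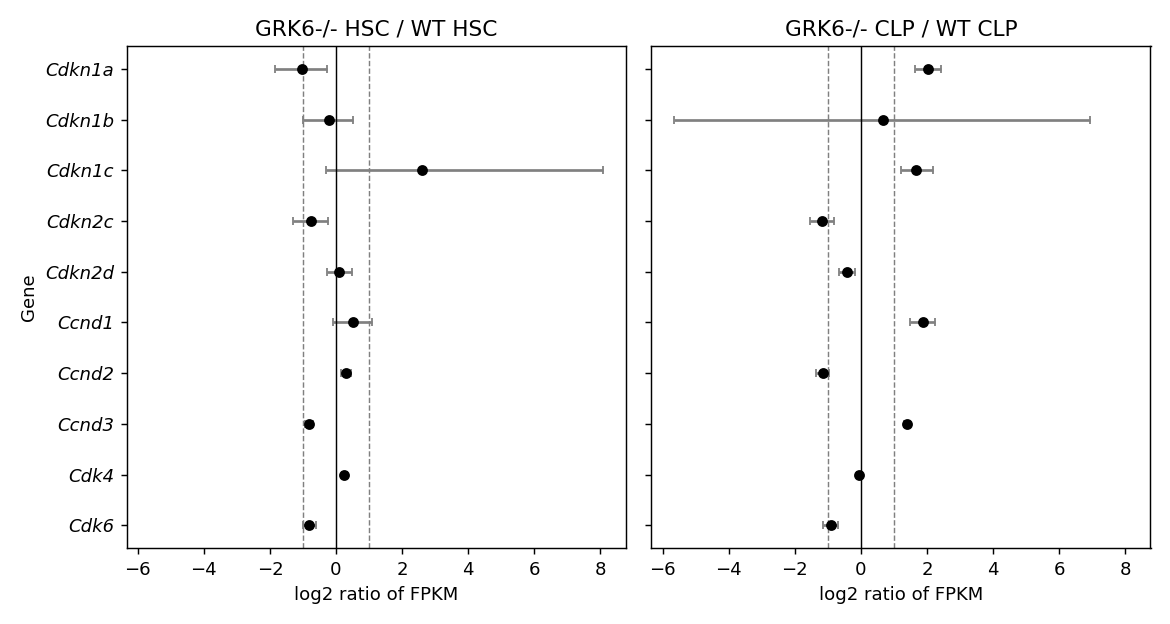
Log2 ratio of FPKM in GRK6-/- over WT (horizontal) of the 10 genes (vertical) in HSC (left) and CLP (right); points are 1 library against 1 library, bars are exact 95% intervals for counting error only, and dashed lines mark 2-fold. The bars of Cdkn1c in HSC and Cdkn1b in CLP are wide because they rest on 1 fragment, and Cdkn1a lies left of 0 in HSC and right of it in CLP.

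Cdk6 and Cdkn2c were the members lower in the GRK6-/- library of both populations with intervals below 1, at ratios of 0.571 and 0.532 for Cdk6 and 0.590 and 0.442 for Cdkn2c. Cdkn1a and Ccnd3 lay on opposite sides of 1 in the 2 populations, as did Ccnd2 in the other sense, with intervals that excluded 1 in each. With 1 library per group these differences between populations were not tested. The limma fit that follows has a single genotype term for both populations, so opposite signs partly cancel in it. For Cdkn1a, at log2 differences of -0.96 in HSC and 1.99 in CLP, the fitted genotype difference was 0.51. Its p-values are therefore no measure of such genes in either population. In limma, fitted over the 4 libraries with genotype and population as terms and 1 residual degree of freedom, 0 of 11230 genes (0%) had an adjusted p under 0.05 for genotype, where 500 had an unadjusted p under 0.05. The lowest adjusted p of any gene was 0.0587, and each of the 10 members had a limma adjusted p of 0.999.

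The comparison of CLP with HSC asked how inhibitors, cyclins and kinases stood in the lymphoid progenitors beside the stem cells. In WT, 4 of 10 genes passed 2-fold, 3 higher and 1 lower in CLP, against 46.5% of 11202 genes (21.8% higher and 24.7% lower). Cdkn1c, Cdkn2d and Cdkn2c were higher in CLP, at log2 differences of 2.69, 1.54 and 1.31, and Cdkn1b was lower, at -2.27. All 4 were inhibitors, but Cdkn1b in WT CLP and Cdkn1c in WT HSC rest on 1 fragment each. With at least 1 FPKM in both libraries 2 of 8 passed, Cdkn2c and Cdkn2d, against 39.0% of the genes so filtered. Counts not above the share of all genes are no result about these members. The 3 D cyclins and the 2 kinases lay between -0.42 for Cdk6 and 0.47 for Ccnd1. The ratios of FPKM were 2.99 (2.41 to 3.75) for Cdkn2d and 2.54 (1.96 to 3.34) for Cdkn2c.

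In GRK6-/-, 7 of 10 genes passed 2-fold, 5 higher and 2 lower in CLP, against 45.6% of 11708 genes (22.3% higher and 23.4% lower). Cdkn1c, Cdkn1a, Ccnd3, Ccnd1 and Cdkn2d were higher in CLP, at log2 differences of 3.39, 3.31, 2.58, 1.75 and 1.04, and Cdkn1b and Ccnd2 were lower, at -2.02 and -1.44. Cdkn1c, Cdkn2d and Cdkn1b therefore passed in the same direction in both genotypes, while Cdkn1a, Ccnd1, Ccnd2 and Ccnd3 passed in GRK6-/- alone and Cdkn2c in WT alone. Whether those genotypes differed was not tested. As ratios of FPKM, Cdkn1a was 10.9 (7.28 to 17.8), Ccnd3 6.01 (5.59 to 6.46), Ccnd1 3.84 (2.91 to 5.09), Cdkn2d 2.10 (1.69 to 2.60) and Ccnd2 0.355 (0.311 to 0.405). The B-lineage sum was also higher in both CLP libraries than in both HSC libraries, and its part in these differences was not tested.

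Set by library, 6 of the 10 genes, Cdkn1a, Cdkn1c, Cdkn2c, Cdkn2d, Ccnd1 and Ccnd3, were higher in both CLP libraries than in both HSC libraries, against 14.2% of the 12417 genes. Cdkn1b and Ccnd2 were lower in both, against 17.6%, so that 8 of 10 did not overlap where 31.8% of all genes did not. Cdk4 and Cdk6 overlapped. Without the GRK6-/- CLP library, WT CLP alone was set against both HSC libraries, where 31.3% of all genes were higher and 33.0% lower. The counts were again 6 and 2, but none of the 8 could be lost. Each already had its WT CLP value above or below both HSC libraries. Several of these orders rest on small gaps: for Ccnd1 the gap was 5.05 to 5.31 FPKM, for Ccnd2 39.6 to 40.7, and for Cdkn2c 22.7 to 25.5. In limma, 1 of 11230 genes (0.0089%) had an adjusted p under 0.05 for population, Ly6d, a marker of B-committed CLP, and 608 had an unadjusted p under 0.05. Of the members Cdkn1c came nearest, 3.04 higher in CLP on the log2 scale (SE 0.93, limma adjusted p = 0.782), followed by Cdkn1b, 2.14 lower (-2.14, SE 0.93, limma adjusted p = 0.916).

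**Figure D4:**
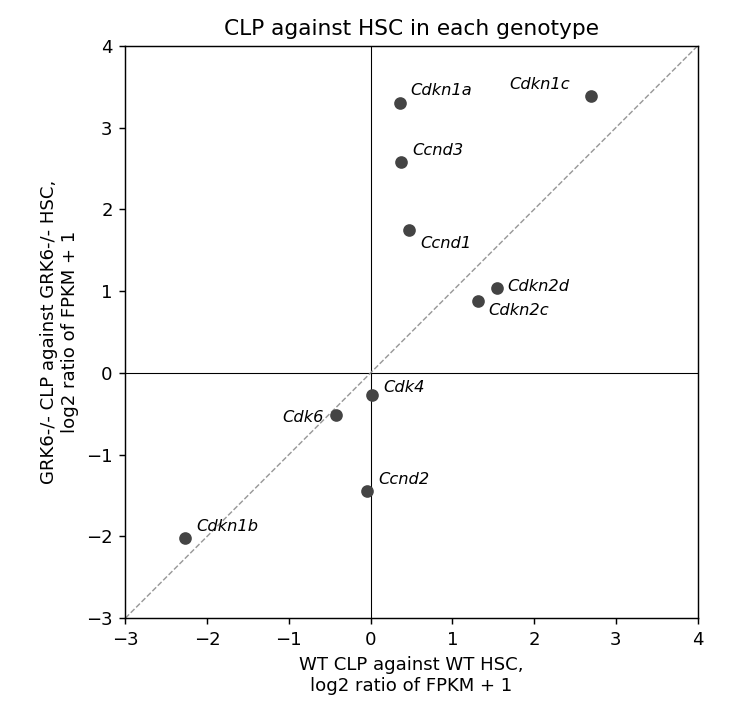
Log2 ratio of FPKM + 1 in CLP over HSC for the 10 genes in WT (horizontal) against GRK6-/- (vertical), 1 library per group, with the dashed line where both are equal. Cdkn1c and Cdkn2d lie to the upper right and Cdkn1b to the lower left, while Cdkn1a, Ccnd3 and Ccnd1 lie far above the line at 0.36 to 0.47 in WT and 1.75 to 3.31 in GRK6-/-.

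Over the 4 libraries the genes whose log2(FPKM + 1) was closest to a member's were named for the 3 members with the widest range, by the root mean square difference over 4 libraries among 12416 genes. For Cdkn1c they were Dennd3, Gfod2 and Zfp825, at differences of 0.38, 0.39 and 0.41. Dennd3 was at 0.449, 1.98, 4.38 and 20.5 FPKM (HSC of WT and GRK6-/-, then CLP). For Cdkn1a they were Bin1, Pcgf5 and Hlf, at differences of 0.30 and, for the last pair, both 0.34. Hlf, a transcription factor of stem cells, was at 22.3, 12.7, 24.1 and 75.04 FPKM in the same order, so it too was highest in GRK6-/- CLP. For Ccnd3 they were Pkm2, Laptm5 and Cd24a, at 0.50, 0.60 and 0.66.

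Around the members, the genes on which they act and those that act on them were taken from lists. The counts past 2-fold below stand against 19.3% of all genes higher and 18.0% lower in GRK6-/- HSC, and 26.6% higher and 23.4% lower in GRK6-/- CLP. The RB family, the targets of cyclin D kinases, gave 2 of 3 genes higher past 2-fold in GRK6-/- HSC and 1 lower, and 2 higher in GRK6-/- CLP, a list too short for a share to be read. Rbl2, which encodes p130, was at 11.6 FPKM in WT HSC and 4.09 in GRK6-/- HSC, had no row in WT CLP and was at 80.5 in GRK6-/- CLP. Rbl1, which encodes p107, was at 9.71, 21.6, 6.24 and 6.54 FPKM in the same order and was highest in GRK6-/- HSC.

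The E2F and DP factors, which the RB proteins hold in check, gave 0 of 8 genes higher and 3 lower past 2-fold in GRK6-/- HSC. In GRK6-/- CLP 7 of 9 were higher and none lower, where 26.6% of all genes were higher and 23.4% lower, with a median log2 difference of 2.73 against 0.05 over all genes. E2f1 was at 42.8 FPKM (WT) and 12.2 (GRK6-/-) in HSC and 0.757 (WT) and 55.8 (GRK6-/-) in CLP, so WT CLP was the lowest, with GRK6-/- HSC next. E2f8, an atypical repressor E2F, was at 8.58, 8.22, 11.2 and 80.5 FPKM, and E2f5 had a row only in GRK6-/- CLP, at 20.3. E2f4 was named jointly with another gene and was left out. The erythroid marker sum was highest in GRK6-/- CLP, mostly through Hba-a2. Epor, Car1 and Car2 were instead highest in GRK6-/- HSC, Car2 at 954.6 FPKM there against 577.3 in GRK6-/- CLP. The megakaryocyte gene Itga2b was at 47.0 FPKM (WT) and 4.2 (GRK6-/-) in HSC and 2.52 (WT) and 46.0 (GRK6-/-) in CLP. Gp9 was at 27.0, 6.70, 0.344 and 32.8. Both, picked from the megakaryocyte markers, were high in WT HSC and GRK6-/- CLP, as E2f1 was. Pf4, at 75.4 FPKM, no row, 10.7 and 36.6, was so too. Ppbp had a row only in GRK6-/- HSC, at 2.20 FPKM, Gp1bb only in GRK6-/- CLP, at 1.84, and Vwf was at 0.114 or lower. The part of both marker groups in these values was not tested.

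Cyclin E, CDK2 and their activators, the next step after cyclin D, gave 0 of 8 higher and 2 lower in GRK6-/- HSC, and 2 higher and 1 lower in GRK6-/- CLP. Against the shares of all genes, 18.0% lower in HSC and 26.6% higher in CLP, these counts are no result about the list. Ccne1, which encodes cyclin E1, was at 6.29 FPKM (WT) and 12.4 (GRK6-/-) in HSC and 0.608 (WT) and 24.9 (GRK6-/-) in CLP. Ccne2 was at 13.6, 4.53, 4.56 and 29.4 FPKM, and both cyclin E genes were therefore highest in GRK6-/- CLP.

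Genes for the turnover and assembly of D cyclins and KIP proteins gave 0 of 10 higher and 3 lower in GRK6-/- HSC, and 2 higher and 3 lower in GRK6-/- CLP, where 26.6% and 23.4% of all genes were. Fbxo4, an F-box protein linked to cyclin D1 turnover, was at 10.6 FPKM (WT) and 0.680 (GRK6-/-) in HSC and at 15.5 in GRK6-/- CLP, with no row in WT CLP. Fbxw8, of the same class, was at 6.03, 10.8, 20.0 and 3.69 FPKM over the 4 libraries. Regulators of the inhibitor genes gave 1 of 9 higher and 1 lower in GRK6-/- HSC, and 0 of 11 higher and 2 lower in GRK6-/- CLP. Myc, which represses inhibitor genes, accounted for the higher one in HSC, at a log2 difference of 1.63, and for one of the lower in CLP, at -1.89. Foxo1, which activates Cdkn1b, was at 9.67, 2.02, 14.9 and 23.4 FPKM over the 4 libraries, and any relation to the Cdkn1b level was not tested. Smad3, a mediator of TGF-beta signals, was at 4.35, 5.73, 17.2 and 9.36 FPKM.

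Proliferation markers gave 3 of 15 higher and 1 lower past 2-fold in GRK6-/- HSC, and 2 higher and 7 lower in GRK6-/- CLP. Of all genes 19.3% were higher and 18.0% lower in HSC, and 26.6% higher and 23.4% lower in CLP. Top2a, needed to untangle chromosomes in G2 and mitosis, was at 166.4 FPKM (WT) and 57.1 (GRK6-/-) in HSC and 478.5 (WT) and 36.5 (GRK6-/-) in CLP, with log2 differences between genotypes of -1.53 in HSC and -3.68 in CLP. Ccnb1, the mitotic cyclin B1, was at 20.2, 58.6, 43.3 and 3.24 FPKM, and Ccnb2 at 52.6, 89.6, 258.4 and 49.0. Mcm7, a subunit of the replicative helicase, was at 422.9, 245.1, 135.0 and 536.8 FPKM and so was highest where Ccnb1, Ccnb2 and Top2a were lowest, in GRK6-/- CLP. Pcna, the DNA clamp of replication, was the other marker past 2-fold higher there, at 222.4 FPKM in WT CLP and 520.9 in GRK6-/- CLP. Markers of the same kinds did not all go together between the CLP libraries. Mcm5 and Mcm6 were higher in GRK6-/- CLP, but Mcm2, Mcm3 and Mcm4 were lower, Mcm3 at 220.5 (WT) and 101.1 (GRK6-/-). Cdk1, Aurka and Plk1 were lower past 2-fold, but Aurkb, at 71.7 (WT) and 99.9 (GRK6-/-), and Mki67, at 22.3 and 26.2, were higher. The markers summed to 1584, 1426, 2006 and 1885 FPKM, a sum in which single markers went in both directions.

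**Figure D5:**
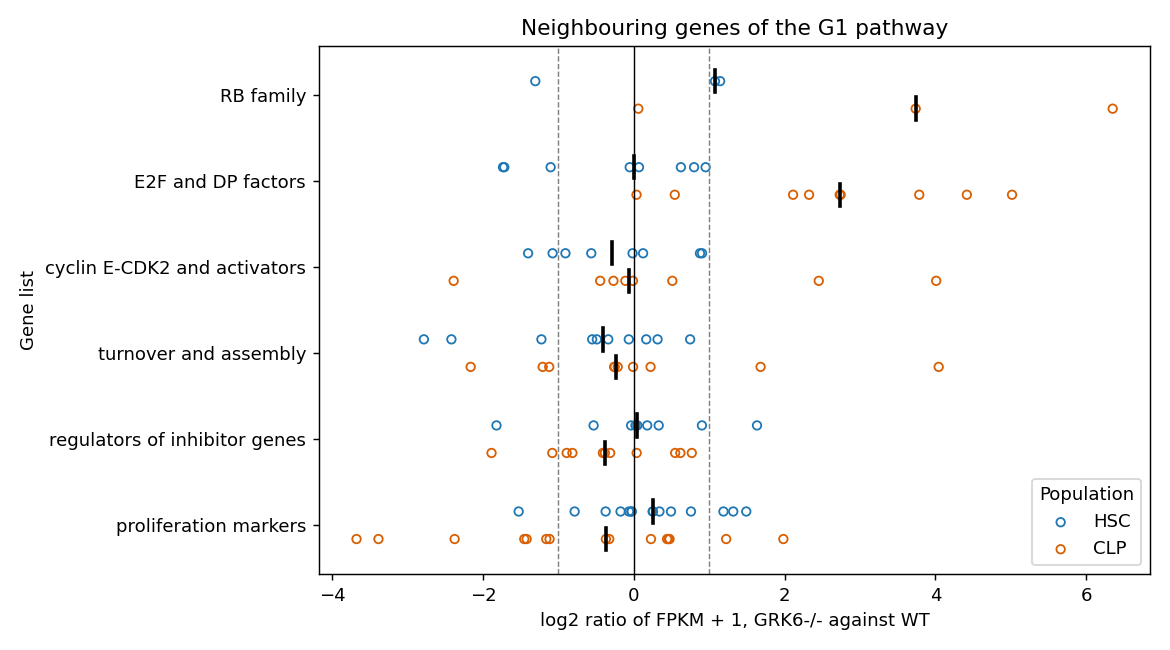
Log2 ratio of FPKM + 1 in GRK6-/- over WT (horizontal) of the genes in 6 lists around the members (vertical), with 1 open circle per gene, blue for HSC and orange for CLP, a black bar at the median of each list and dashed lines at 2-fold. In CLP 7 of 9 E2F and DP factors lie right of the 2-fold line, and 7 of 15 proliferation markers lie left of it.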

How the data were processed

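Poly(dT)-primed cDNA of single sorted cells was amplified, pooled by group and sequenced on an Illumina platform by the authors, giving 1 library for each of 4 groups. The submitters' processing notes name TopHat 1.4.0 and mm9; the authors deposited FPKM values, 1 per row of a gene or joint group of genes and library, without counts, bounds or p-values.

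From these, values of rows sharing a symbol were added, genes with no row were set to 0 FPKM, and 333 of 12750 genes named in joint rows were left out. Differences were log2 ratios of FPKM + 1, with an absolute log2 of 1 (2-fold) as threshold. Being added to low values, the pseudocount understates their differences. Depth was estimated from steps of low FPKM values, of which 70.2% to 81.0% lay within 10% of 1, 2 or 3 fragments, and intervals used the shortest CCDS transcript. Within a population or a genotype there was no test, with 1 library per group. limma 3.58.1 (R 4.3.3) fitted genotype and population over genes with at least 1 FPKM in at least 1 library, with Benjamini-Hochberg adjustment. Locations and Cdkn2d sequences came from mm9 with GENCODE vM1, promoters from RefSeq. Python 3.11.15, numpy 2.4.6, pandas 2.3.3 and scipy 1.17.1 were used, and the depth estimate, the calls, the intervals and limma were tested on simulated data. The genes named around the members were, with the exceptions that follow, those of each list with the largest difference in each direction past 2-fold and at least 10 FPKM. Trp53, Pcna, E2f8, Itga2b, Gp9, Pf4 and the p53 element were added after their values were seen. Mcm2 to Mcm6, Cdk1, Aurka, Aurkb, Plk1, Mki67, Hba-a2, Epor, Car1, Car2, Ppbp, Gp1bb and Vwf were also named outside this rule. The members and lists were chosen with earlier results of these data known.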

Additional observations from a re-analysis of the deposited data

Results flagged for a closer look

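The difference between genotypes had opposite signs in the populations, with counting intervals that excluded 1 in each, for Cdkn1a, Ccnd3 and Ccnd2. The log2 difference in CLP minus that in HSC was 2.952 for Cdkn1a, 2.2 for Ccnd3 and -1.405 for Ccnd2. With 1 library per group these differences were not tested, and all 3 rest on the GRK6-/- CLP library, which also had the highest erythroid and B-lineage sums. The megakaryocyte marker sum had opposite signs too, 149.6 FPKM (WT) and 13.1 (GRK6-/-) in HSC against 13.5 and 117.3 in CLP. The part of these markers was not tested.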

How the results depend on the processing

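The counts of members past 2-fold, 0 (HSC) and 6 (CLP) between genotypes and 4 (WT) and 7 (GRK6-/-) between populations, were the same after each of 2 rescalings of the libraries, with the highest row per symbol and, chosen after seeing the data, with the annotated Cdkn2d locus alone. The setting without the GRK6-/- CLP library was likewise chosen after seeing the data, and it could not lower the counts of members not overlapping between populations. With a pseudocount of 0.1 the HSC count was 2, Cdkn1a lower and Cdkn1c higher, where 49.8% of all genes passed. With a pseudocount of 10 the counts were 2 for CLP between genotypes (Cdkn1a and Ccnd3), 2 for WT (Cdkn2c and Cdkn2d) and 4 for GRK6-/- between populations. Of all genes 21.6%, 18.4% and 17.6% passed there. At an absolute log2 of 2 the counts were 0, 2 and 4 in the same order, against 24.8%, 20.5% and 19.1% of all genes. With at least 1 FPKM in both libraries the WT count was 2 of 8, against 39.0%. No difference reversed under any of these. With the highest row per symbol, also chosen then, the share of Cdkn2d was 24.6% (WT) and 36.4% (GRK6-/-) in HSC and 32.9% (WT) and 19.5% (GRK6-/-) in CLP, and that of Cdkn1a 20.4% in GRK6-/- HSC and 17.6% (WT) and 53.6% (GRK6-/-) in CLP. In limma, quantile normalisation called 1 gene for genotype, Snora70, and the 1 population call, Ly6d, became 0 with a pseudocount of 0.1, without the filter and with at least 10 FPKM; the cause was not tested. No paired analysis was possible because each group was 1 library and the labels give no replicate numbers; limma held population as a term beside genotype. Differences resting on 1 fragment, in Cdkn1b and Cdkn1c, are limited by depth.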
